A study of Rattus norvegicus with 57 samples.

Results

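Liver gene expression after a recovery period was compared between 4 rats that had received 30 mg/kg methapyrilene and 4 rats that had received vehicle. These 8 arrays were chosen by the dose and day in their titles, out of 57 arrays in the series, and all 10725 measured genes were compared. The animals were male Han Wistar rats aged 8 to 10 weeks and weighing 170 to 200 g. Methapyrilene in carboxymethylcellulose, or carboxymethylcellulose alone for the controls, was given by gavage once a day for 14 days. The animals then had 10 days without dosing, and livers were taken on day 24. The stated design had 6 animals per group and time, so 4 arrays per group are not all of the animals planned. For comparison, 5 control and 5 animals given 30 mg/kg were examined on day 15, at the end of dosing, and 5 animals given 80 mg/kg were examined on day 24.

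Methapyrilene is an antihistamine that was withdrawn because it causes liver tumours in rats. In rat liver it injures the hepatocytes around the portal tract, where it is metabolised to reactive products. The injured liver is known for induction of glutathione and stress response genes, for amino acid response genes driven by the transcription factor ATF4, and for influx of macrophages and growth of bile duct cells. Whether such changes recede once dosing stops is the question that a recovery group addresses.

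The tissue label was borne out by hepatocyte genes. Alb, Ttr, Apoa1, Cyp2e1, Cps1, Tat and Serpina1 lay at or above the 93.04 percentile of genes on all 8 arrays. Array quality measures did not separate the groups. The ratio of 3' to 5' signal of actin, a measure of RNA integrity, averaged 7.41 ± 1.63 in controls and 7.38 ± 1.31 at 30 mg/kg (SD, n = 4 each; exact permutation p = 0.971). One array stood apart. The log2 signals of 30 mg/kg replicate 3 correlated at 0.9616 to 0.9657 with the other 7 arrays, which correlated at 0.9695 to 0.9805 among themselves.

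Very few genes separated the groups after recovery. Of 10725 genes, 10 passed limma's test at an adjusted p under 0.05, which is 0.0932%, with 5 raised and 5 lowered at 30 mg/kg (0.0466% each). Changes are log2 differences, 30 mg/kg minus control, with standard errors. Without adjustment, 578 genes (5.39%) were higher and 515 (4.8%) were lower at p under 0.05. Every 30 mg/kg array lay above every control array in 232 genes (2.16%) and below in 185 (1.72%). The median change of all genes was 0.01, and 53.5% of genes had a change above 0. A gene's 95% confidence interval reached a median of 0.295 to either side of its value, and for 88.4% of genes the whole interval lay within 1 log2 unit of no change. The number of genes depended on single animals and on the scaling of the arrays. Without 30 mg/kg replicate 3, 0 passed (786 at an unadjusted p under 0.05 in limma), and without control replicates 2, 3, 4 and 5 the numbers were 2, 1, 1 and 4. Without 30 mg/kg replicates 1 and 2 they were 25 and 31. With quantile normalization 18 passed, 6 raised and 12 lowered, and with arrays shifted to a common median 5 passed, 3 raised and 2 lowered. When only the 8 arrays were fitted, 0 passed (706 at an unadjusted p under 0.05). On day 15 the same dose had passed the test in 493 genes (4.6%), 291 raised (2.71%) and 202 lowered (1.88%), and on days 4 and 8 in 0.783% and 0.233% of genes.

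The rise with the smallest p was in C1qb, which encodes the B chain of C1q, the recognition molecule that starts the classical complement pathway and that liver macrophages produce. C1qb signals were 176.6, 208.4, 209.2 and 160.2 in the controls and 322.3, 327.3, 429.1 and 236.8 at 30 mg/kg. Every treated animal lay above every control. The change was 0.78 ± 0.14, a 1.72-fold rise (adjusted p = 0.00784). The 30 mg/kg mean of 328.9 ± 78.7 (SD, n = 4) was also above the control means of the other days, which were 310.6 on day 4, 250 on day 8 and 293.2 on day 15. The day 24 control mean, 188.6 ± 24.3 (SD, n = 4), was below all 3 of them, and the day 24 controls were 0.64 ± 0.13 lower than the day 15 controls (limma adjusted p = 0.000359). C1qb was chosen on these treated arrays, and 30 mg/kg replicate 4, at 236.8, lay below every control array of days 4 and 15. C1qb passed in 18 of 20 alternative analyses. It was lost without 30 mg/kg replicate 3, its highest array, where the change was 0.64, and when only the 8 arrays were fitted.

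C1qa and C1qc, the other chains of the same protein, lie beside C1qb on rat chromosome 5. C1qa signals were 486.2, 534.6, 595.2 and 477.9 in controls and 823.3, 478.6, 957.5 and 631 at 30 mg/kg. C1qc signals were 199.1, 241, 255.7 and 197.6 against 387.9, 242.4, 364.7 and 278.5. In both genes 30 mg/kg replicate 2 lay among the controls and the other 3 treated animals lay above them. The differences were 0.42 ± 0.16 for C1qa (adjusted p = 0.319) and 0.49 ± 0.16 for C1qc (adjusted p = 0.223), and neither passed. Without 30 mg/kg replicate 3 that of C1qa was 0.27.

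The 250 bases before the start of C1qa and of C1qb are shown because these neighbouring genes differed in the same direction. They come from RefSeq on assembly GRCr8, at chr5:154419934-154420183 and chr5:154407828-154408077, both on the minus strand, and C1qc had no entry. Capitals mark GAGGAA, a form of the site bound by PU.1, the macrophage transcription factor, or its reverse complement TTCCTC. Other forms of the site were not searched for.
C1qa: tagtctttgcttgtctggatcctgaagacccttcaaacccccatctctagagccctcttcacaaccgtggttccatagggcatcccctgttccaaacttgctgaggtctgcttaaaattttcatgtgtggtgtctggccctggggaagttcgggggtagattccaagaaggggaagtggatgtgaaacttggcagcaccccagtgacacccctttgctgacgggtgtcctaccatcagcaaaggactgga
C1qb: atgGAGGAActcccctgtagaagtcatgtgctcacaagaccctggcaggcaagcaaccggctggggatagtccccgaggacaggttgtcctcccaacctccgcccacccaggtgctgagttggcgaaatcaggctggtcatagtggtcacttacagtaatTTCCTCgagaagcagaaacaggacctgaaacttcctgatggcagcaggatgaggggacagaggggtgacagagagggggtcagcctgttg
C1qb held 2 matches, which begin 247 and 90 bases before the start, and C1qa held 0. GAGGAA or its complement occurred in 23.3% of 33469 rat promoters of this length, and a match is a description of the letters only.

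Of the other genes that rose, She had the largest change. She encodes an adaptor protein with an SH2 domain. Its signals were 28.23, 25.27, 41.56 and 41.05 in controls and 56.53, 61.93, 61.84 and 64.48 at 30 mg/kg, a change of 0.88 ± 0.19 (adjusted p = 0.0405). The 4 treated animals were close together and all above the controls. A second and dimmer probe set for She, above the filter level on 12 of 57 arrays, gave -0.06. Hyal2, which encodes a hyaluronidase of the cell surface, rose by 0.62 ± 0.13 (adjusted p = 0.0405), from 57.25, 51.81, 57.28 and 62.25 to 97.27, 84.17, 74.06 and 96.59. Its groups did not overlap either, and the lowest treated animal was replicate 3.

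Pom121, a protein that anchors the nuclear pore, and Etnk1, the ethanolamine kinase that starts phosphatidylethanolamine synthesis, rose by smaller amounts. Pom121 signals were 70.23, 81.82, 72.04 and 73.08 in controls and 92.89, 104.8, 107.1 and 95.19 at 30 mg/kg, and the change was 0.43 ± 0.09. Etnk1 signals were 528.3, 550.8, 523.4 and 473.4 against 614.2, 726, 690.4 and 677.8, a change of 0.38 ± 0.08. Both had an adjusted p of 0.0405 in limma and no overlap between groups. A dimmer probe set for Etnk1 gave 0.26.

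Among the genes that fell, Gstt3 had the highest signals. It encodes a theta class glutathione transferase, one of the enzymes that conjugate reactive chemicals with glutathione. Gstt3 signals were 2723, 3129, 2952 and 3178 in controls and 2772, 2146, 1519 and 1927 at 30 mg/kg. The change was -0.55 ± 0.12 (adjusted p = 0.0405), although replicate 1 at 30 mg/kg lay within the control range. Without 30 mg/kg replicate 3, the lowest array, the change was -0.41 and did not pass. Gstt3 was the only one of the 10 genes that had passed at 30 mg/kg on day 4, 8 or 15, and on day 15 it had risen, by 0.41 ± 0.10 (adjusted p = 0.0131). The difference between the effects of the days was -0.96 ± 0.15 (adjusted p = 0.000595). Gstt3 was chosen for its day 24 change, which favours this sign.

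Cd82, a tetraspanin of the plasma membrane, Snf8, a subunit of the ESCRT-II complex that sorts proteins into endosomes, and Tmem167a, a small Golgi membrane protein, also fell. Cd82 signals were 258.9, 287.2, 266.6 and 269.3 in controls and 239.1, 235.9, 151 and 203.4 at 30 mg/kg, a change of -0.41 ± 0.09. Without 30 mg/kg replicate 3 it was -0.26 and did not pass. Snf8 signals were 385.8, 408.1, 376.8 and 381 against 325, 297.8, 294.1 and 279.9, a change of -0.38 ± 0.08. In Cd82 and Snf8 all treated animals were below all controls. Tmem167a went from 624, 607.4, 610.6 and 727.3 to 464.3, 442.6, 425 and 535.3, a change of -0.46 ± 0.10. The 3 genes had an adjusted p of 0.0405 in limma. Other probe sets for Tmem167a that passed the filter gave -0.08 and -0.13, so the fall rests on 1 probe set.

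Kntc1, a kinetochore protein of the mitotic checkpoint, had the largest fall, -1.73 ± 0.34 (adjusted p = 0.0312), at very low signal. Its signals were 12.28, 20, 16.21 and 17.41 in controls and 8.28, 2.48, 5.26 and 5.34 at 30 mg/kg. The filter level was 17.09, and Kntc1 lay above it on 29 of 57 arrays. Of 36 measured cell cycle genes, 0 passed, 4 were lower (11.1% against 4.8% of all genes) and 0 higher without adjustment, and their median was -0.22. The controls alone spread from -0.75 to 0.59 in the median of this list. With 1 array left out the median ran from -0.58 to -0.04, and without the control and treated replicate 4 it was -0.01.

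**Figure D1:**
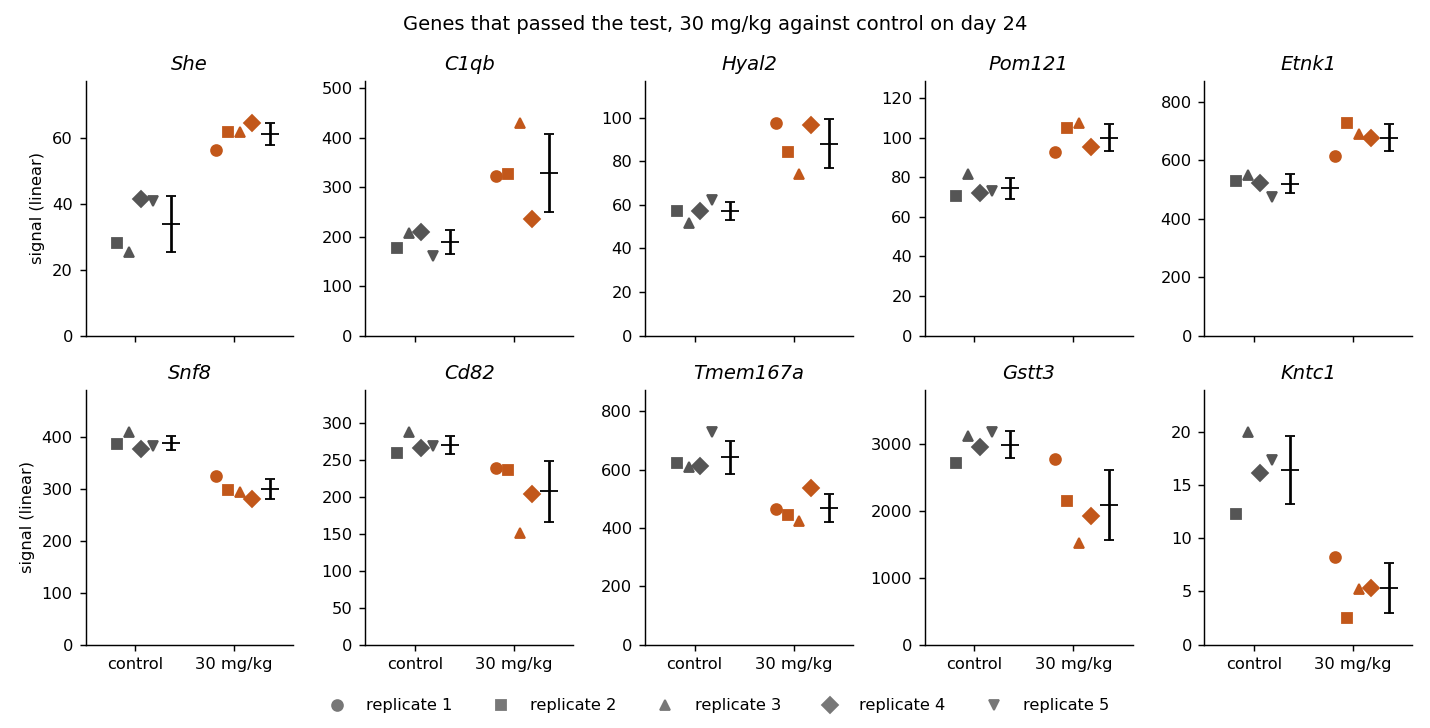
Each panel gives the linear signal of a gene on the 4 control and 4 treated arrays of day 24, with the mean and SD in black beside each group and a marker shape for each replicate number. In 9 of the 10 genes every treated array lies on the same side of every control array, and in Gstt3 replicate 1 at 30 mg/kg lies among the controls.

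The controls of day 24 stood apart from the controls of the other days. Between day 24 and day 15 controls, 1635 genes (15.2%) passed, with 6.71% of genes lower on day 24. For 8 of the 10 genes the day 24 control mean lay outside the range of the control means of days 4, 8 and 15. In 4 of the 5 raised genes it lay below that range. She averaged 58.18, 48.03 and 58.47 in the controls of days 4, 8 and 15, 34.03 in those of day 24 and 61.2 at 30 mg/kg on day 24. The 30 mg/kg mean also lay outside the range of the 3 other control means in all 10 genes, above it in the raised genes and below it in the lowered ones. The 10 genes were chosen on these same treated arrays, which favours such a position, so this is a description. Single arrays overlapped in She, which reached 72.61 in a day 4 control and 70.16 in a day 15 control, above every treated array. RNA integrity ratios moved with the day. The actin 3' to 5' ratio was 6.04 to 9.76 in the day 24 controls, 6.54 to 9.30 at 30 mg/kg on day 24 and 3.80 to 6.37 in the controls of the other days. The Gapdh ratio was 1.57 to 1.81 in the day 24 controls, 1.63 to 1.82 at 30 mg/kg on day 24 and 1.13 to 1.565 in the earlier controls. The part of RNA integrity in the differences between control days was not tested. The labels do not say whether days were processed together, so day and processing cannot be told apart in the comparison of controls.

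**Figure D2:**
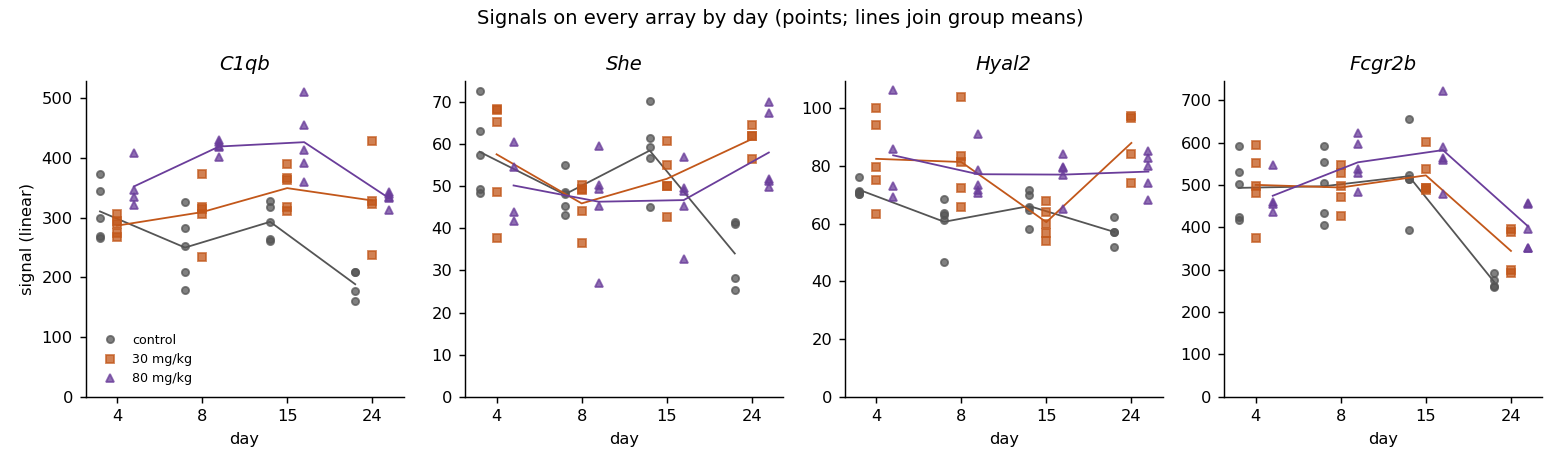
Points are the linear signals of C1qb, She, Hyal2 and Fcgr2b on each array, by day and dose, and lines join the means of groups of different animals. In C1qb and She the day 24 controls are the lowest of the control groups, and in Fcgr2b all groups are lower on day 24 than on day 15.

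The higher dose gives the values after recovery from a larger exposure, against the same 4 controls, so both comparisons share any peculiarity of those controls. At 80 mg/kg, 1097 genes (10.2%) passed on day 24, 7.15% raised and 3.08% lowered. Of the 10 genes, 6 passed there too, with changes of 0.83 ± 0.13 for C1qb, 0.79 ± 0.18 for She, 0.45 ± 0.12 for Hyal2, 0.40 ± 0.08 for Etnk1, 0.36 ± 0.09 for Pom121 and -0.46 ± 0.08 for Snf8. The doses were also compared directly, without the controls, and 726 genes (6.77%) passed. Tmem167a was higher at 80 than at 30 mg/kg by 0.62 ± 0.10, Kntc1 by 1.49 ± 0.32 and Cd82 by 0.29 ± 0.08 (limma adjusted p = 9.22e-05, 0.00353 and 0.0242). For these 3 genes the 30 mg/kg group was the low one and the higher dose did not pass against control, with changes of 0.16, -0.24 and -0.11. The 3 were named for low values on the same 30 mg/kg arrays, which favours this sign, so this is a description. For Tmem167a it rests on 1 probe set.

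A further 16 genes, the 8 of smallest p in each direction whose groups did not overlap, are given as a description, since none of them passed. The higher ones were Arhgef7, a Rac and Cdc42 exchange factor, Helz2, a helicase that coactivates nuclear receptors, Stk24, a kinase, Egfl7, a protein secreted by endothelium, Svil, an actin-binding protein, Mapre2, a microtubule end-binding protein, Ncoa6, a nuclear receptor coactivator, and Rabggtb, part of the enzyme that attaches lipid to Rab proteins. Their differences ran from 0.36 for Rabggtb to 0.66 for Mapre2, with adjusted p from 0.0554 to 0.0783. Helz2 signals were 279.1, 273, 337.1 and 240.6 in controls and 358, 414.2, 536.4 and 408.3 at 30 mg/kg. On day 15 Helz2 had fallen by 0.44 ± 0.13, and the difference between the effects of the days, 1.03 ± 0.19, passed (adjusted p = 0.00202). Helz2 was named for its day 24 values, which favours this sign.

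The lower ones included Dhcr7, the enzyme of the last step of cholesterol synthesis, Sec22b, a SNARE of transport between endoplasmic reticulum and Golgi, and Mkks, a chaperonin-like protein. With them were Vav2, an exchange factor, and Pgpep1, a peptidase. Dhcr7 signals were 1392, 1615, 1379 and 1441 in controls and 1088, 1258, 417.5 and 1069 at 30 mg/kg, with replicate 3 far below the rest. Its difference was -0.72 ± 0.17 (adjusted p = 0.0554), and -0.36 without replicate 3. The other 3 were mitochondrial. Tmem126b, an assembly factor of complex I, Mrps11, a protein of the mitochondrial ribosome, and Micu2, a regulator of calcium uptake, differed by -0.28 ± 0.07, -0.31 ± 0.08 and -0.33 ± 0.09. For each of these 3 the effect on day 24 was below that on day 15 in a test of the difference (adjusted p = 0.0284, 0.00992 and 0.000595). They were chosen for low day 24 values, which favours this sign. The day 24 controls were above the day 15 controls by 0.33 ± 0.08 in Mrps11 and 0.29 ± 0.08 in Micu2 (limma adjusted p = 0.00185 and 0.0109). In Tmem126b the controls differed by -0.02. The list of 31 respiratory chain genes had 0 higher and 4 lower (12.9% against 4.8% of all genes) without adjustment. Its median was -0.03, which lay on either side of 0 in the alternatives.

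As a group, the genes that had changed at the end of dosing had a median near the control level, though single genes stood apart in both directions. These genes were chosen on the animals of day 15, and the animals of day 24 are others. The 291 genes raised on day 15 had a median change of 0.50 then and 0.02 on day 24, when 156 were above 0. Without adjustment 25 were higher on day 24 (8.59% against 5.39% of all genes) and 19 lower (4.8% of all genes were lower). Of the 291, 1 passed, Gstt3, which fell. Per treated animal their median lay between -0.01 and 0.05. The 202 genes lowered on day 15 had a median of -0.41 then and 0.00 on day 24, with 104 above 0 and 0 passing (22 at an unadjusted p under 0.05 in limma). Of the 22, 8 were lower (3.96% of the 202 against 4.8% of all genes) and 14 higher (5.39% of all genes were higher). The shares above 0, 53.6% and 51.5%, were close to the 53.5% of all genes. The change was smaller on day 24 in 286 of the 291 and 199 of the 202. These genes were chosen for their change on day 15, so that count is a description. The day 24 effect minus the day 15 effect passed in 117 of all genes (1.09%), 74 lower (0.69%) and 43 higher (0.401%). The number was 55 without control replicate 5 and 44 and 70 without 30 mg/kg replicates 3 and 4. Of the 117, 72 had passed on day 15, as had 4.6% of all genes, with 46 of the raised genes lower and 26 of the lowered genes higher on day 24. The day 15 arrays enter both tests, which favours this overlap and these signs, so these counts are a description too.

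**Figure D3:**
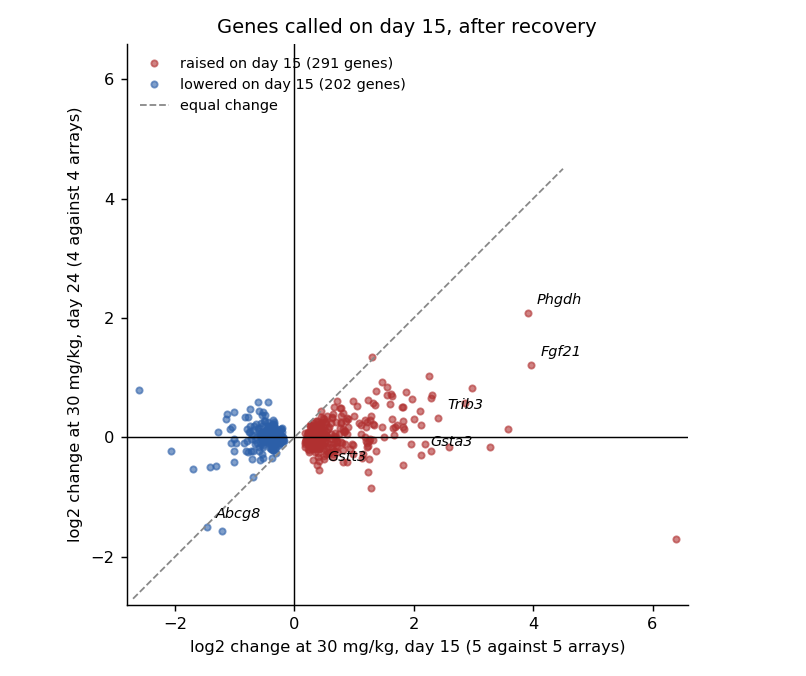
Each point is a gene that passed at 30 mg/kg on day 15, with its log2 change on day 15 on the horizontal axis and on day 24, in other animals, on the vertical axis. Red and blue points are the 291 raised and 202 lowered genes, the dashed line marks equal changes, and most points lie near 0 on the vertical axis, with Fgf21, Phgdh and Abcg8 among those farther away.

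In the test of the difference between days, a detoxification gene had one of the smallest p. After Gstt3 and Micu2 came Gsta3, Cryl1 and Enc1, which were chosen after their values were seen. Gsta3, an alpha class glutathione transferase, rose by 2.13 ± 0.28 on day 15 and differed by -0.29 ± 0.31 on day 24 (difference -2.42 ± 0.42, adjusted p = 0.00129). Its day 24 signals were 95.26, 37.62, 111.3 and 75.44 in controls and 154, 58.64, 54 and 27.6 at 30 mg/kg, so the groups overlapped. Cryl1, a crystallin-like enzyme of sugar metabolism, rose by 1.24 ± 0.21 on day 15 and stood at -0.58 ± 0.24 on day 24, or -0.34 without replicate 3. Enc1, an actin-binding protein, rose by 2.12 ± 0.22 and stood at 0.22 ± 0.25. Both differed between the days at an adjusted p of 0.00129. Of 27 measured oxidative stress genes driven by Nrf2, 3 had risen on day 15, against 2.71% of all genes, and on day 24 0 passed. The day 24 median was 0.03, which lay on either side of 0 in the alternatives. Without adjustment 2 were higher (7.41% against 5.39% of all genes) and 3 lower (11.1% against 4.8%). The lower ones included Gsta4, whose signals of 1750, 1654, 1550 and 1785 in controls lay above 1485, 1456, 1176 and 1382 at 30 mg/kg, a difference of -0.30 ± 0.09 (adjusted p = 0.177). Abcc3, an efflux transporter, had the largest rise of the list at 1.12 ± 0.43, or 0.69 and 0.74 without control replicates 2 and 3, and Gstm3 the largest fall at -1.33 ± 0.77, both dim and neither passing.

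ATF4 and amino acid response genes had been the most raised of the pathway lists named here at the end of dosing. Of 21 measured members, 12 had risen on day 15, against 2.71% of all genes, and the median was 1.35. On day 24, 0 passed, 5 were higher (23.8% against 5.39% of all genes) and 1 lower (4.76% against 4.8%) without adjustment, and the median was 0.17. That median rested on 1 animal. The list's median per animal was 0.62 in 30 mg/kg replicate 4 and 0.04 to 0.12 in the other 3 treated animals, against -0.12 to 0.11 in controls, and without replicate 4 the list's median was 0.02. Without replicate 2 or 3 it was 0.26 or 0.30. Replicate 4 had signals of 113.2 for Phgdh, the first enzyme of serine synthesis, and 151.9 for Asns, asparagine synthetase. Phgdh lay between 0.73 and 8.28 on the other 7 arrays and Asns between 12.7 and 24.73. Asns differed by 0.85 ± 0.36 with replicate 4 and by 0.08 without it.

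Fgf21, a hormone that liver secretes under amino acid and mitochondrial stress, was farther from control than most. Its signals were 19.28, 25.09, 17.78 and 18.27 in controls and 30.39, 25.26, 58.59 and 100.8 at 30 mg/kg. All treated animals were above all controls, replicate 2 only just. The difference was 1.21 ± 0.41 (adjusted p = 0.234), after a rise of 3.97 ± 0.36 on day 15, and the effect was lower on day 24 by 2.76 ± 0.54 (adjusted p = 0.00519). Trib3, a pseudokinase that ATF4 induces, had risen by 2.41 ± 0.34 and stood at 0.32 ± 0.38 on day 24 (difference -2.08 ± 0.51, adjusted p = 0.0264). Fgf21 was named for its rise on day 15 and Trib3 after its values were seen, which favours the sign of both differences. Nupr1, a stress-induced nuclear protein, differed by 0.93 ± 0.31 and Slc3a2, a chain of amino acid transporters, by 0.33 ± 0.13, both without passing. Chac1, which degrades glutathione, differed by 1.03 ± 0.56, and Shmt2, the mitochondrial serine hydroxymethyltransferase, was the 1 gene lower without adjustment, at -0.23 ± 0.08, or -0.15 without replicate 3.

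The 250 bases before the start of Fgf21 and Trib3 are shown as the members of this list whose effects differed between the days. They are from RefSeq on GRCr8, at chr1:105221377-105221626 and chr3:161275534-161275783, both on the minus strand. Capitals mark TGATGNAA, the composite element bound by C/EBP and ATF proteins, or its reverse complement TTNCATCA.
Fgf21: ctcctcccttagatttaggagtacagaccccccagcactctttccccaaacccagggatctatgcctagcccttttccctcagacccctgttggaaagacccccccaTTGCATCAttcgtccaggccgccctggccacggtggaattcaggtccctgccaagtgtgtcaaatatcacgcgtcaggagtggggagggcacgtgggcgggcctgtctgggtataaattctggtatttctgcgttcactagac
Trib3: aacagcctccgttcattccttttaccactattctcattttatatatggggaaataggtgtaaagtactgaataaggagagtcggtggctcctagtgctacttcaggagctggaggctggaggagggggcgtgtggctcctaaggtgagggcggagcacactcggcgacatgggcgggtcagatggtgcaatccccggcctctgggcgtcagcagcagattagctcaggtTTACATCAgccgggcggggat
Each held 1 match, beginning 143 bases before the start in Fgf21 and 21 bases before it in Trib3, against 3.4% of 33469 promoters of this length with 1 or more.

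The remaining genes with the largest changes on day 15 were dim or varied widely between animals. Phgdh had risen by 3.92 ± 0.71 and stood at 2.08 ± 0.79, which was 0.80 without 30 mg/kg replicate 4 and 3.17 without replicate 3. Abcg8, a sterol transporter of the bile canaliculus, had fallen by 1.46 on day 15 and stood at -1.49 ± 0.48 on day 24 (adjusted p = 0.225). Its signals were 20.14, 7.44, 9.53 and 17.67 in controls and 1.99, 7.41, 7.9 and 3.46 at 30 mg/kg, near the floor of the array and overlapping. RT1-T24-4, a class I histocompatibility gene of a large family whose members share sequence, ranged from 6.08 to 548.9 within the treated group. Noct, a clock-controlled phosphatase, Acot1, an acyl-CoA thioesterase, and Gem, a small GTPase, had risen by 3.58, 3.27 and 2.97 on day 15 and stood at 0.14, -0.15 and 0.83. AA926063, an uncharacterised transcript, Dab1, a reelin adaptor, Nfe2, a transcription factor of blood cells, Rcc1, a Ran exchange factor, and Kcnj15, a potassium channel, had fallen by 2.60, 2.07, 1.70, 1.41 and 1.31 and stood at 0.79, -0.22, -0.53, -0.49 and -0.47. None of them passed on day 24.

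Markers of the cells that line and patrol the liver sinusoids were mostly above the controls after recovery, and C1qb alone passed. In whole liver a larger number of cells of a type and more RNA per cell cannot be told apart. Of 24 measured macrophage and monocyte markers, out of 31 listed, 1 passed, C1qb, 9 were higher (37.5% against 5.39% of all genes) and 0 lower without adjustment, 21 were above 0 and the median was 0.30, against 0.01 over all genes. No marker was listed at 0. Cd68, a lysosomal protein of macrophages, had signals of 118.9, 125.6, 169.4 and 126.1 in controls and 182.2, 164.3, 266.8 and 175.3 at 30 mg/kg, a difference of 0.53 ± 0.16 (adjusted p = 0.177). Clec4f, a lectin of Kupffer cells, had 559.9, 821.4, 708.8 and 607 against 1117, 713.7, 1321 and 882.8, a difference of 0.56 ± 0.17 (adjusted p = 0.185). The groups overlapped in both genes, through control replicate 4 in Cd68 and 30 mg/kg replicate 2 in Clec4f. Ctss, a lysosomal protease, Mrc1, the mannose receptor, Csf1r, the receptor for the macrophage growth factor, and Adgre1, the F4/80 antigen, differed by 0.57, 0.30, 0.30 and 0.16. Without replicate 3 Mrc1 differed by 0.16. The chemokine Ccl2, a signal that recruits monocytes, had the largest difference in the other direction, -0.70 ± 0.61, at signals of 1.24 to 11.36.

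The macrophage difference was not seen in all treated animals. Summed over the 24 markers, the signal was 4545 to 6628 in controls and 7948, 6001, 8525 and 6465 in 30 mg/kg replicates 1 to 4, so replicates 2 and 4 lay within the control range. The median per animal was 0.56, -0.02, 0.48 and 0.28, against -0.23 to 0.24 in controls. The same list had a median of 0.25 at 30 mg/kg on day 15, with 0 passing, and of 0.65 at 80 mg/kg on day 24, with 16 passing, against 7.15% of all genes raised. The day 24 controls were the lowest of the 4 control groups for 21 of the 24 markers, against 31.6% of all genes, and were lower than the day 15 controls by a median of 0.40, with 8 markers passing, against 6.71% of all genes. Without control and 30 mg/kg replicate 4 together, the day 24 median was 0.49.

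Of 21 measured endothelial markers, out of 25 listed, 0 passed, 9 were higher (42.9% against 5.39% of all genes) and 0 lower without adjustment, 20 were above 0 and the median was 0.28. Of all genes, 53.5% were above 0. Without 30 mg/kg replicate 3, the highest animal, the median was 0.18. Egfl7 signals were 44.76, 46.17, 43.14 and 44.08 in controls and 62.22, 56.7, 71.3 and 59.36 at 30 mg/kg, a difference of 0.48 ± 0.12 (adjusted p = 0.0684). Egfl7 was named because its groups did not overlap. Its day 24 controls differed from the day 15 controls by -0.48 ± 0.11 (limma adjusted p = 0.00172). Fcgr2b, an Fc receptor of sinusoidal endothelium, Tek, the angiopoietin receptor, and Wnt2, a ligand that central vein endothelium secretes, had no overlap either, with differences of 0.33, 0.29 and 0.60. Without replicate 3 that of Tek was 0.18. Wnt2 was dim, with mean signals of 15.36 in controls and 23.2 at 30 mg/kg. Its day 24 controls differed from the day 15 controls by -0.62 ± 0.21 (limma adjusted p = 0.0342). Kdr, a VEGF receptor, and Pecam1, a junction protein, differed by 0.30 and 0.34 with overlap, and Kdr by 0.18 without replicate 3. The summed signal was 2616 to 2891 in controls and 3632, 2994, 3786 and 2723 in replicates 1 to 4. At 80 mg/kg the median was 0.42 with 10 passing, against 7.15% of all genes raised. The day 24 controls were again the lowest controls for 17 of 21 markers, and 12 passed as lower than on day 15, against 6.71% of all genes. Fcgr2b averaged 520.5 in day 15 controls, 271.6 in day 24 controls, 344.3 at 30 mg/kg and 402.4 at 80 mg/kg on day 24, so all 3 groups of day 24 were below the earlier controls.

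T and NK lymphocyte markers, 12 measured, had a median of 0.27 with 11 above 0. Without adjustment 2 were higher (16.7% against 5.39% of all genes). The day 24 controls were the lowest controls for 7 of the 12, against 31.6% of all genes. The median was 0.16 without 30 mg/kg replicate 1, 0.43 without replicate 2 and 0.18 without control replicate 2. Gzma, a granzyme, had 14.34, 17.7, 22.26 and 16.58 in controls and 40.53, 22.64, 36.87 and 22.7 at 30 mg/kg, a difference of 0.76 ± 0.25 (adjusted p = 0.23), without overlap. Ccl5, a lymphocyte chemokine, differed by 0.61 ± 0.24, and by 0.94 and 0.39 without 30 mg/kg replicates 2 and 3. Of 30 stellate cell and matrix markers, 24 were above 0 and the median was 0.15, or 0.25 without control replicate 4. Without adjustment 2 were higher (6.67% against 5.39% of all genes). The day 24 controls were the lowest controls for 20 of the 30, against 31.6% of all genes, and 5 passed as lower than on day 15, against 6.71%. Members included Pdgfra, a receptor of stellate cells and fibroblasts, at 0.26 ± 0.12, with Dcn, a matrix proteoglycan, at 0.78 ± 0.40 and Des, the filament protein of stellate cells, at 0.41 ± 0.22. Biliary and progenitor markers, which mark bile duct cells and their growth, had a median of 0.07 over 18 genes (0.00 to 0.15 with 1 array left out). Without adjustment 1 was higher (5.56% against 5.39% of all genes) and 0 lower. At 80 mg/kg the median of these markers was 0.83 and 4 passed, against 7.15% of all genes raised. What the shift of marker genes contributes to C1qb and to the other raised genes was not tested.

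Lipid genes differed mainly in particular animals. Of 21 fatty acid synthesis genes, 0 passed, 19 were below 0 and the median was -0.29, while 53.5% of all genes were above 0. Without adjustment 6 were lower (28.6% against 4.8% of all genes) and 0 higher. Srebf1, the transcription factor that drives the pathway, had signals of 1227, 1029, 1150 and 1060 in controls and 838.9, 1066, 348.4 and 511.8 at 30 mg/kg. Fasn, the fatty acid synthase, had 1296, 1170, 1435 and 912 against 792.4, 1364, 404 and 448.7. Thrsp, a lipogenic nuclear protein, had 2807, 3415, 4168 and 3244 against 2630, 3314, 738.2 and 1090. In each, replicates 3 and 4 were far below the controls and replicate 2 was within their range. The differences were -0.82 ± 0.27, -0.84 ± 0.33 and -1.05 ± 0.33, with adjusted p from 0.201 to 0.356. Without replicate 3 they were -0.53, -0.60 and -0.67. Acly, which supplies acetyl-CoA, Elovl6, an elongase, Scd, a desaturase, and Pnpla3, a lipase, differed by -0.47, -0.85, -0.75 and -1.24. The list's median per animal was -0.05 and 0.05 in replicates 1 and 2 and -0.90 and -0.56 in replicates 3 and 4, against -0.02 to 0.14 in controls. It was -0.11 without replicate 3.

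Fatty acid oxidation genes driven by PPAR alpha mostly had the opposite sign. Of 30, 7 were higher (23.3% against 5.39% of all genes) and 0 lower without adjustment, 0 passed and the median was 0.15. Members above 0 numbered 23 and those below 0 numbered 7, while 53.5% of all genes were above 0. Ppara, the gene of PPAR alpha itself, had the largest difference in the other direction, -1.34 ± 0.77 (limma adjusted p = 0.559). It was dim, with signals of 0.91 to 20.9. Ech1, an isomerase of unsaturated fatty acids, had 696.4, 781.4, 589.4 and 967.3 in controls and 794.3, 670.1, 2253 and 1106 at 30 mg/kg. Cpt1a, the enzyme that lets fatty acids into mitochondria, had 758.9, 1035, 1012 and 1342 against 1111, 931.2, 2684 and 1840. Cyp4a3, a fatty acid hydroxylase, had 1944, 1635, 1943 and 2084 against 2440, 2146, 4386 and 2659, without overlap. Replicate 3 was the highest array in all 3 genes. The differences were 0.52 ± 0.17, 0.57 ± 0.24 and 0.56 ± 0.17, with adjusted p from 0.199 to 0.409. Without replicate 3 they were 0.17, 0.29 and 0.34. Cyp4a1, Cpt2 and Creb3l3, a hydroxylase, a carnitine transferase and a liver transcription factor, differed by 0.44, 0.35 and 0.36, and by 0.20, 0.08 and 0.25 without replicate 3. The list's median was 0.59 in replicate 3 and 0.00 to 0.05 in the other treated animals, and it was 0.01 without replicate 3.

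Cholesterol synthesis and uptake genes had a median of -0.11 over 20 genes, with 0 passing, and again replicate 3 was the lowest, at -0.48. Without adjustment 2 were higher (10% against 5.39% of all genes) and 3 lower (15% against 4.8%). Acat2, the first enzyme from acetyl-CoA, differed by -0.67 ± 0.21 and Fdps, farnesyl diphosphate synthase, by -0.26 ± 0.14, while Stard4, a cholesterol carrier, stood at 0.38 ± 0.16. Without replicate 3 the median was 0.01 and without replicate 4 it was -0.24. In genes with a group mean signal over 50, each array was set against the mean of the other arrays of its group. Replicate 3 at 30 mg/kg had 54 genes over 1 log2 unit above that mean and 82 below it. The other arrays had 10 to 41 above and 12 to 44 below. The part of the state of replicate 3 in these lists was not tested.

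**Figure D4:**
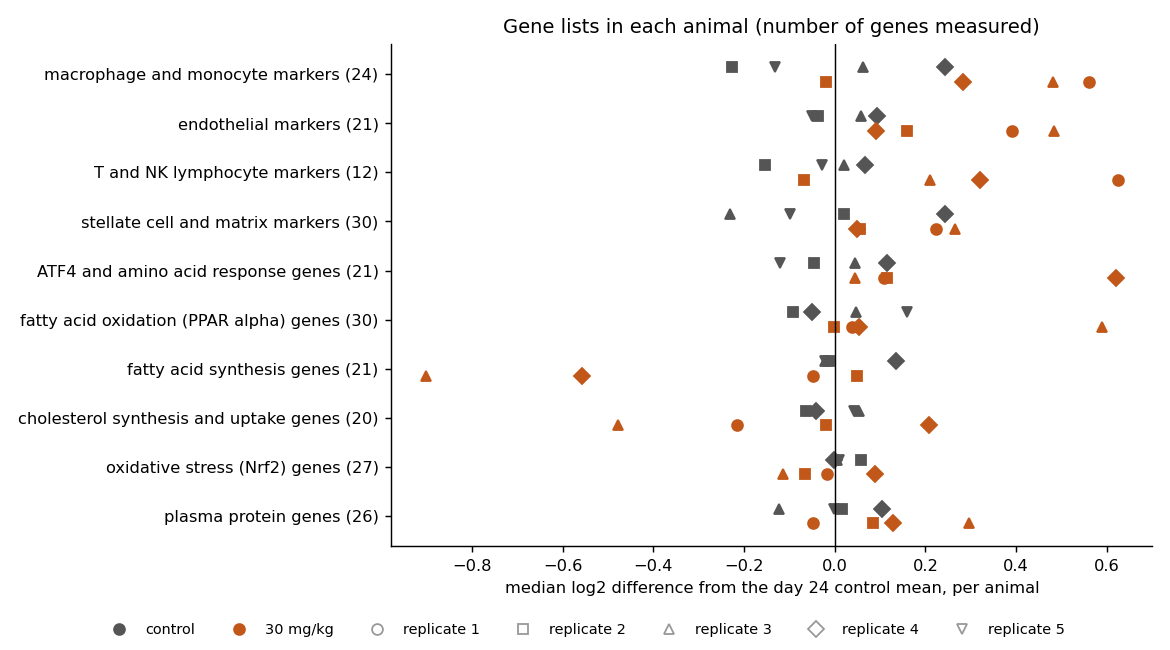
Each marker is the median, over a list's genes, of an animal's log2 difference from the mean of the day 24 controls, with grey for control and orange for 30 mg/kg, a shape for each replicate number and the number of genes measured after each name. Replicates 1 and 3 at 30 mg/kg are highest in macrophage and endothelial markers, replicate 4 in ATF4 genes, and replicates 3 and 4 are lowest in fatty acid synthesis.

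The other lists of liver function had few differences. Without adjustment 2 of 26 plasma protein genes were higher (7.69% against 5.39% of all genes) and 0 lower. Of the 26, 25 were above 0, against 53.5% of all genes, with a median of 0.11. That median was 0.03 with quantile normalization, 0.05 without 30 mg/kg replicate 3 and 0.07 without control replicate 3. Endoplasmic reticulum chaperone genes, 5 of which had fallen on day 15 against 1.88% of all genes, had a median of 0.01 over 17 genes. At p under 0.05 in limma they had 0. Heat shock and p53 target genes likewise had 0 at that level, of 11 and 15. On day 15, 2 and 3 of them had risen, against 2.71% of all genes. Xenobiotic cytochrome P450 genes had a median of 0.04 over 22 genes with 0 higher and 1 lower (4.55%). Urea cycle and amino acid genes had a median of -0.05 over 42, with 2 higher (4.76%) and 3 lower (7.14%). Of all genes, 5.39% were higher and 4.8% lower. Over all 41 lists and 690 measured genes, 1 gene passed, C1qb.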

How the data were processed

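RNA from rat liver was hybridised to Affymetrix Rat Genome 230 2.0 arrays. Single housing of the rats, per the labels, is the basis for counting each array as 1 animal, and p-values measure only the spread between these arrays. The authors deposited MAS5 signal intensity on a linear scale, and the version of MAS5 is not given in the sources used here. Every array has a trimmed mean of 99.992, so the values are scaled to one level. Absolute rises shared by all genes would be removed by that scaling. The number of arrays limits the precision.

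Signals were log2 transformed without an offset. Probe sets with 1 gene symbol were kept where 4 or more arrays exceeded 17.09, the median signal, and each gene was read from its brightest probe set, which gave 10725 genes. Names came through Entrez identifiers from the RefSeq table of GRCr8, and promoter sequences from the same assembly. limma 3.58.1 in R 4.3.3 fitted 12 group means to all 57 arrays, with eBayes and a variance trend, two-sided tests and Benjamini-Hochberg adjustment, and a gene passed under 0.05. Array measures were compared on the log2 scale by a two-sided exact permutation test, whose smallest p with 4 against 4 is 0.02857. The 3 measures had adjusted p of 0.771 or more. List counts and medians stand without a set test.

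The groups, the gene lists and the rule for naming genes were chosen with earlier results of these data known. The rule names every gene that passed, the 8 smallest p in each direction among genes that did not pass, whose groups do not overlap and whose higher mean signal is over 50, the 6 largest changes in each direction of day 15, and the extremes of each list. The text does not name every gene the rule allows, and other list members were named after their values were seen. Alternatives were quantile normalization, shifting arrays to a common median, dropping the filter, raising it to the 60th percentile, an offset of 3.31, the mean of probe sets, all probe sets, no trend, array weights, only the groups compared, the replicate block, the actin ratio as a covariate, leaving out control replicate 4 and 30 mg/kg replicate 4 for their high actin ratios, and each array left out. In a simulation with 10725 genes and 50 true changes per fold, 68%, 88%, 94% and 100% were called on day 24 at folds of 1.5, 2, 3 and 4. With them 13 unchanged genes were called. All folds were planted together, the noise was normal and independent between genes, and no animal like 30 mg/kg replicate 3 was simulated. Many true changes ease the Benjamini-Hochberg threshold, so these rates may be higher than those in the data, where 10 genes passed. Figures used matplotlib.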

Additional observations from a re-analysis of the deposited data

Results flagged for a closer look

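In 180 groups of 4 arrays (both groups of the 86 genes given day 24 values, and 4 array measures), 7 had an array far from the other 3 by Dixon's criterion on log2 values, and chance gives about 1 in 20. At 30 mg/kg, replicate 3 had a Dhcr7 signal of 417.5 against 1069 to 1258 in the other 3 animals and a Pgpep1 signal of 671.2 against 983.2 to 1025. Replicate 1 had an Acot1 signal of 0.18 against 3.07 to 3.35, all near the floor. Among controls, replicate 5 had 727.3 for Tmem167a against 607.4 to 624, 30.49 for Pecam1 against 46.06 to 47.82 and 60.21 for Enc1 against 74.16 to 76.78, and replicate 4 had 169.4 for Cd68 against 118.9 to 126.1.

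The effect of 30 mg/kg differed between day 24 and day 15 in limma's test of the difference for 14 of these genes (day 24 minus day 15). Over all genes 1.09% passed this test. The 14 were named for values that enter it, so their number is a description. It was higher on day 24 for Hyal2 (0.75), She (1.05), Pom121 (0.51) and Helz2 (1.03). It was lower on day 24 for Kntc1 (-1.77), Gstt3 (-0.96), Tmem126b (-0.38), Mrps11 (-0.51), Micu2 (-0.73), Fgf21 (-2.76), Trib3 (-2.08), Gsta3 (-2.42), Cryl1 (-1.82) and Enc1 (-1.91). These differences also hold the change of the controls, day 24 minus day 15. That change was -0.80 for She, 0.33 for Mrps11 and 0.29 for Micu2 (limma adjusted p = 0.00121, 0.00185 and 0.0109). It was -0.21, -0.22 and -0.18 for Hyal2, Pom121 and Helz2, without passing. The higher genes, and Kntc1, Gstt3, Tmem126b, Mrps11 and Micu2, were named for their day 24 values, which favours these signs. Fgf21 was named for its rise on day 15, and Trib3, Gsta3, Cryl1 and Enc1 after their values were seen, which favours their signs as well.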

How the results depend on the processing

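The 10 genes of day 24 became 18 with quantile normalization, 5 at a common median, 2 without a filter, 3 with array weights, 6 over all probe sets, 0 with only the groups compared and 19 without the pair of arrays of high actin ratio, 4 of them shared with the 10. Leaving out 1 array gave 0 to 31. The cause was not tested. The replicate block gave 11 and changed no direction. Same-numbered arrays correlated at 0.016, 0.035 and 0.040 in their deviations, and 2 of 3 correlated best with their own number. These 3 values do not settle whether same-numbered animals share anything, and the main test does not pair them. The block gave 116 for the difference between days. That count, 117, was 57 at a common median, 37 with only the groups compared and 44 to 175 with 1 array left out. The day 24 median of genes raised on day 15, 0.020, was 0.053 at a common median and 0.051 with only the groups compared, and -0.0014 to 0.048 with 1 array left out. The day 24 median of the genes lowered on day 15 moved by less than the spread between animals in all alternatives run.

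The 9 genes other than C1qb passed in 6 to 12 of their 19 or 20 alternatives, and none of the 10 changed direction. Of 76 named genes that did not pass, 14 passed in at least 1 alternative, Dhcr7 in 5. With 1 array left out, directions turned for Noct (-0.10 without 30 mg/kg replicate 2, up to 0.48), Acot1 (0.32, 0.21 and 0.88 without control replicate 4, control replicate 5 and 30 mg/kg replicate 1, down to -1.01), AA926063 (-0.26 without control replicate 3, up to 1.42), Dab1 (0.0074 without 30 mg/kg replicate 3, down to -0.68) and Gsta3 (0.088 without 30 mg/kg replicate 4, down to -0.74). Gsta3 also stood at 0.28 without the arrays of high actin ratio. With 4 arrays a group, changes under about 0.295 log2 lie within the typical gene's confidence interval.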
